A study of Mus musculus with 6 samples.

Results

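The calcium/calmodulin-dependent protein kinases (CaM kinases) were followed in RNA-seq of the mouse somatosensory cortex, using the rows whose symbol is *Camk1*, *Camk1d*, *Camk1g*, *Camk2a*, *Camk2b*, *Camk2d*, *Camk2g*, *Camk4*, *Camkk1* or *Camkk2*. All 10 genes were found among the 21667 named genes, and all 10 passed the filter on low values. The study asked which cortical genes change when the transcription factor MEF2C is removed from forebrain excitatory neurons. The 3 control mice were Mef2cfl/fl, and the 3 *Mef2c* cKO mice were Mef2cfl/fl; Emx1-Cre, so that both genotypes carried the floxed *Mef2c* alleles. All were adult males of a mixed SVeV-129; C57BL/6J strain. Replicate 1 of each genotype was 14 weeks old, and replicates 2 and 3 were 12 weeks old. Cre was expressed from the *Emx1* gene, which is active in the lineage of forebrain excitatory neurons and part of the glia, whereas the RNA came from the whole tissue with all its cell types. Fewer cells of a type and less RNA per cell therefore cannot be told apart.

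CaM kinases turn a rise in intracellular calcium into protein phosphorylation. Calcium-loaded calmodulin opens their catalytic site. The CaM kinase kinases (CaMKK, from *Camkk1* and *Camkk2*) then phosphorylate and further activate CaMKI and CaMKIV, while CaMKII, built from the products of *Camk2a*, *Camk2b*, *Camk2d* and *Camk2g*, forms large holoenzymes that phosphorylate themselves. CaMKII is among the most abundant proteins of the postsynaptic density and is required for long-term potentiation, whereas CaMKIV is largely nuclear and acts on CREB. CaM kinases also phosphorylate class IIa histone deacetylases, which releases MEF2 factors from repression.

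The deposited values were RPKM (reads per kilobase and 1000000 mapped reads), but the lengths behind them differed between mice for one and the same gene. For *Camk4*, the RPKM ranged from 0.184 to 48.2 over the 6 mice because the reads had been divided by lengths from 5431 to 952049 bases. Whole reads were therefore recovered in each mouse and divided by the sample total to give CPM (reads per 1000000 reads), with no length. CPM values are compared here only within a gene. Sample totals lay between 19326365 and 54128334 reads. The members had between 372 reads (*Camk1g*) and 180424 reads (*Camk2a*) in a mouse. Of the 60 member values, 57 fitted a single read number and 3 fitted more than one.

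The targeted gene cannot check the labels in these tables, since a count over the whole gene still holds the reads outside the deleted part. *Mef2c* had 800, 772 and 800 CPM in the controls and 1231, 1276 and 1468 CPM in the cKO mice. It was higher in all 3 cKO mice, by 0.74 on the log2 scale (SE 0.075, limma with Benjamini-Hochberg adjustment, adjusted p = 2.4e-04). *Emx1*, into which Cre was inserted, had 16.5, 20.3 and 18.8 CPM in the controls and 5.71, 4.97 and 5.10 CPM in the cKO mice. The cortical identity of the tissue showed in its markers. The summed level of the 5 excitatory neuron markers with a value in every mouse was 1434 to 1597 CPM in controls and 1776 to 1836 CPM in cKO mice, and 4 of 6 tested genes of that list were higher and 1, *Emx1*, lower in cKO mice. Markers of other cells and regions were present too. The striatal projection neuron list summed to 186 to 261 CPM in controls and 204 to 408 CPM in cKO mice, with *Drd1* and *Penk* higher among its 8 genes. The oligodendrocyte list summed to 3237 to 5314 CPM in controls and 5255 to 6752 CPM in cKO mice, with 2 of 8 genes higher. The microglia list summed to 220 to 245 CPM in controls and 205 to 215 CPM in cKO mice, and none of its 8 genes and none of 5 endothelial genes passed the cut-offs given below. Among 8 astrocyte markers *Gfap* (log2 fold change 1.37) and *Aqp4* (0.73) were higher and *Aldh1l1* (-0.39) was lower in cKO mice, with list sums of 1434 to 1487 CPM in controls and 1422 to 1582 CPM in cKO mice. Among 8 interneuron markers *Sst* (0.57) and *Npy* (0.54) were higher and *Pvalb* (-0.80) was lower, with list sums of 664 to 744 CPM and 696 to 762 CPM. With 1 mouse left out, *Sst* and *Npy* each passed in 2 of 6 fits and *Pvalb* in all 6. Of 3 tested thalamic markers only *Slc17a6* passed, lower in cKO mice (-0.59), and in 2 of the 6 fits that leave out 1 mouse. *Tcf7l2* had 0.29. The thalamic sums were 35.8 to 45.9 CPM in controls and 28.3 to 34.3 CPM in cKO mice. Of 3 dentate gyrus markers only *C1ql2* passed, lower in cKO mice, while *Prox1* had 0.23. The dentate sums overlapped, at 10.1 to 13.6 CPM and 9.52 to 13.8 CPM. Of 6 general neuron markers 2 were higher. No choroid plexus or red blood cell marker passed. The part of these lists in the results below was not tested.

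The promoter stretches of *Camkk1* and *Camk2d* are shown as those of a member higher and a member lower in cKO mice. The *Camk2d* difference was the less stable, as given below. Whether the stretches have a part in the differences was not tested. Each is the 250 bases before the start site, 5′ to 3′, on the plus strand of GRCm38.p6 from RefSeq, a build other than that of the reads. *Camkk1* lies at chr11:73018738-73018987 and *Camk2d* at chr3:126596701-126596950. Capitals mark TGACG, the half-site of the cAMP response element that CREB binds.
Camkk1: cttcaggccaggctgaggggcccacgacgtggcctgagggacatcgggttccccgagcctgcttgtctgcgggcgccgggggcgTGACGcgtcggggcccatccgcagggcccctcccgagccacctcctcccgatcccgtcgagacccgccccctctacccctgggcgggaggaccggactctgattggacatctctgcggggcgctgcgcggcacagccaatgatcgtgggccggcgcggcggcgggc
Camk2d: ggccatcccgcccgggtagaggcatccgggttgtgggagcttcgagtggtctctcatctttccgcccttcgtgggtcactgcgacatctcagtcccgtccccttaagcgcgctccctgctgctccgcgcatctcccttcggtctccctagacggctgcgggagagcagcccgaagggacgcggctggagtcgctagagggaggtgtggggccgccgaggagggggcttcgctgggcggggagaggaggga
The half-site begins 166 bases before the start of *Camkk1*, and these letters are not in the *Camk2d* stretch. The search covered 7 members, with 8 such stretches. *Camk2a* and *Camk4* were left out of it, and no entry was found for *Camk2g*. On either strand, TGACG was found in 2 of the 8, those of *Camkk1* and *Camk1*, and in 17.8% of all 32851 stretches. The MEF2 consensus was found in none of the 8 and in 2.92% of all stretches. These matches describe letters and not bound sites.

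Of the 10 CaM kinases, 4 passed the cut-offs, an adjusted p under 0.05 and an absolute log2 fold change above 0.3 (limma, adjusted over all 14596 genes tested). *Camk4*, *Camk2g* and *Camk2d* fell in cKO cortex and *Camkk1* rose. Over all tested genes 13.3% passed, 7.56% lower and 5.73% higher in cKO mice. The genotypes did not overlap for 6 members, the 4 genes above with *Camk1* and *Camk2b*, against 33.7% of the 13196 genes with a value in every mouse. The median log2 fold change of the 10 members was -0.16, and that of all tested genes was 0.01. For a single gene, 3 mice per genotype allow no exact permutation p under 0.1. Each sample is 1 animal by the study's account.

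**Figure D1:**
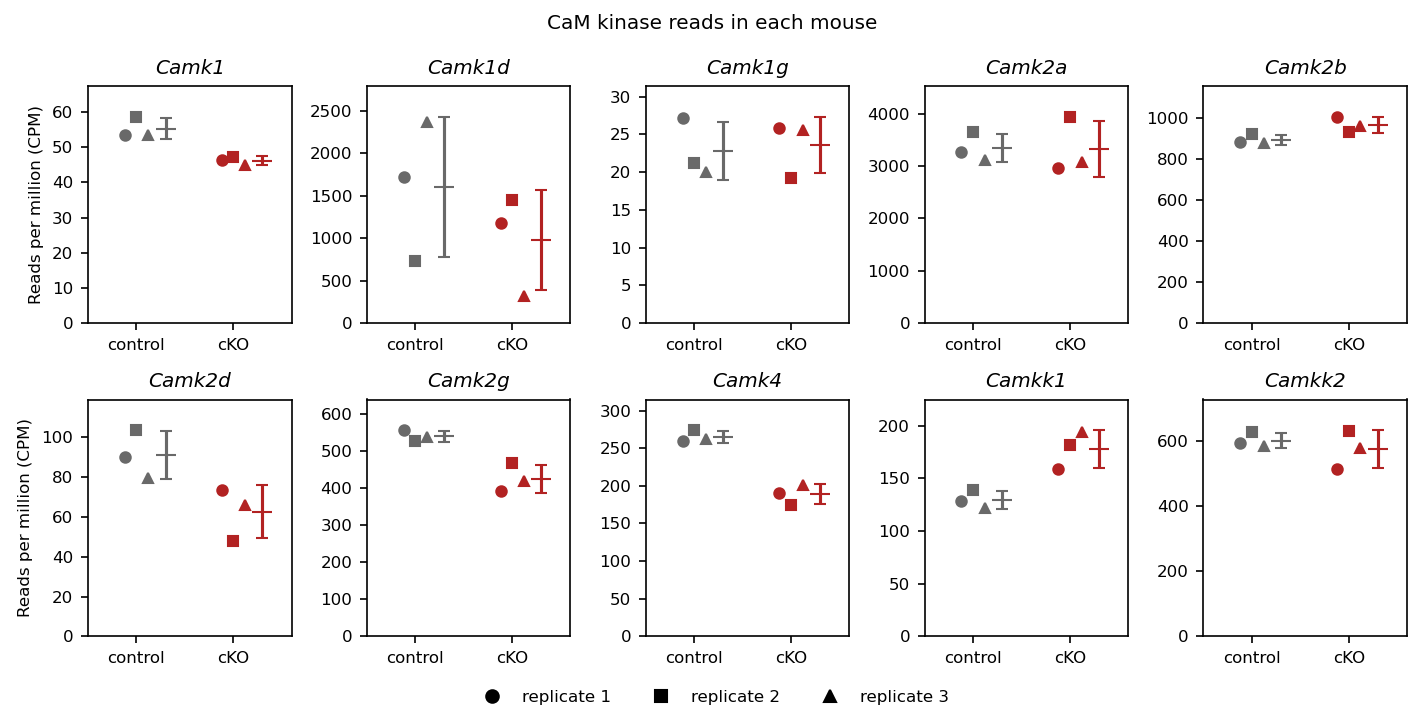
CPM of each CaM kinase in the 3 control mice (grey) and the 3 *Mef2c* cKO mice (red); each symbol is 1 mouse, the bars are mean ± SD (n = 3), and every axis starts at 0. *Camk4*, *Camk2g* and *Camk2d* are lower and *Camkk1* higher in each cKO mouse than in any control, while the *Camk1d* values range from 319 to 2370 CPM.

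At the top of the cascade, the CaM kinase kinases behaved unequally. *Camkk1*, which encodes CaMKKα, had 129, 139 and 122 CPM in the controls and 159, 181 and 194 CPM in the cKO mice, so that every cKO mouse was above every control. It rose 1.37-fold, a log2 fold change of 0.45 (SE 0.082, adjusted p = 0.0059 by limma). *Camkk2*, which encodes CaMKKβ, an upstream kinase of AMPK as well, had 595, 627 and 585 CPM in the controls and 516, 631 and 580 CPM in the cKO mice. These groups overlapped, with a log2 fold change of -0.07 (SE 0.078, adjusted p = 0.619). The *Camkk2* reads of control replicate 2 also fitted a far longer length, at 408941 reads in place of 30983, and the shorter length was taken. Within each mouse, the log2 ratio of *Camkk1* to *Camkk2* reads, which needs no sample total, was -2.21, -2.18 and -2.26 in the controls and -1.70, -1.80 and -1.58 in the cKO mice. The ratio was thus higher in all 3 cKO mice than in any control, by 0.52. *Camkk1* passed without any one of the 6 mice, with log2 fold changes between 0.39 and 0.53.

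Among the kinases that CaMKK activates, *Camk4* showed the clearest difference. It had 259, 274 and 262 CPM in the controls and 191, 175 and 201 CPM in the cKO mice, with a gap between the groups far wider than the spread in either. The level fell by 28.8%, a log2 fold change of -0.49 (SE 0.063, adjusted p = 9.14e-04 by limma), and leaving out any one mouse gave -0.53 to -0.44, each past the cut-offs. The log2 ratio of *Camkk1* to *Camk4* reads within a mouse was -1.01, -0.98 and -1.10 in the controls and -0.27, 0.05 and -0.05 in the cKO mice, higher in every cKO mouse than in any control, with a difference of 0.94 between the genotype means.

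The CaMKI genes differed from *Camk4*. *Camk1*, which encodes CaMKIα, a cytoplasmic kinase linked to neurite growth, had 53.6, 58.6 and 53.5 CPM in the controls and 46.4, 47.2 and 44.8 CPM in the cKO mice. The groups did not overlap and the adjusted p was 0.0251 (limma), but the log2 fold change of -0.26 (SE 0.064) stayed inside the cut-off on size. In control replicate 3 its reads also fitted a far longer length, at 46920 reads in place of 2760. *Camk1* lies on chromosome 6 from 113284118 to 113293978 on the minus strand of mm9, where *Ogg1* overlaps it on the other strand. *Ogg1* had 5.58 to 6.47 CPM in all mice. *Camk1g*, which encodes CaMKIγ, was the least abundant member in reads, with 27.2, 21.2 and 20 CPM in the controls and 25.9, 19.2 and 25.6 CPM in the cKO mice. Its groups overlapped (log2 fold change 0.05, SE 0.147, adjusted p = 0.869 by limma).

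*Camk1d*, which encodes CaMKIδ, varied more between mice of one genotype than between genotypes. It had 1719, 732 and 2370 CPM in the controls and 1183, 1445 and 319 CPM in the cKO mice. The highest mouse had 7.43 times the level of the lowest, and the SD within genotypes was 1.04 on the log2 scale against a median of 0.11 over 13196 genes, the 42nd highest of all. Its log2 fold change of -0.82 (SE 0.573, adjusted p = 0.403 by limma) ranged from -1.30 without control replicate 2 to -0.14 without *Mef2c* cKO replicate 3. A small number of abundant genes had the same order of mice. Among the 27 of 4345 genes with a mean of at least 50 CPM whose highest mouse was at least 4 times the lowest, the genes closest to *Camk1d* by Pearson's r of log2 CPM over the 6 mice were *Il31ra* (0.99), *Peak1* (0.99), *Cdk8* (0.99), *Trpm3* (0.98) and *Lars2* (0.98). This listing was made after the *Camk1d* values were seen, and the points share library and depth. *Lars2*, the mitochondrial leucyl-tRNA synthetase, had 3661, 1480 and 4520 CPM in the controls and 2596, 3370 and 287 CPM in the cKO mice. *Cdk8*, a kinase of the Mediator complex, had 386, 170 and 485 CPM in the controls and 330, 381 and 62.1 CPM in the cKO mice. Both, like *Camk1d*, were lowest in *Mef2c* cKO replicate 3, and highest in control replicate 3. The ratio of *Camk1d* to *Lars2* reads was between 0.43 and 0.52 in 5 mice and 1.11 in *Mef2c* cKO replicate 3. What these genes share was not tested.

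**Figure D2:**
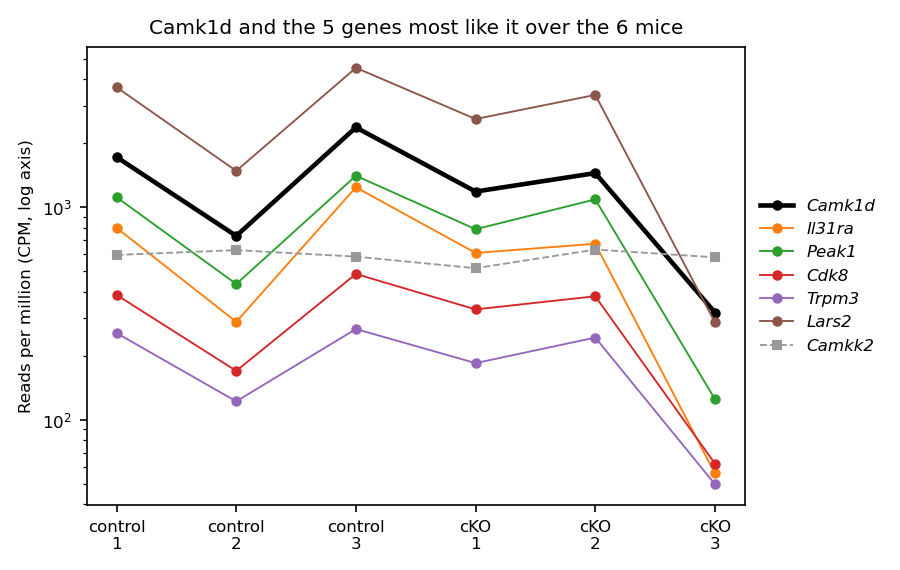
CPM (log axis) in each of the 6 mice for *Camk1d* (thick black), for the 5 genes closest to it over the mice, and for *Camkk2* (dashed grey) as a member that varied little; lines only join the values of a gene. *Camk1d* and the 5 genes drop together in control replicate 2 and in *Mef2c* cKO replicate 3, where *Camk1d* had 732 and 319 CPM, while *Camkk2* stays between 516 and 631 CPM.

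The 4 CaMKII genes split into pairs. *Camk2a* and *Camk2b* encode the α and β subunits that dominate in forebrain neurons, and neither passed the cut-offs. *Camk2a* had 3265, 3653 and 3119 CPM in the controls and 2965, 3940 and 3084 CPM in the cKO mice, groups that overlapped with both extremes in the cKO mice (log2 fold change -0.02, SE 0.117, adjusted p = 0.951 by limma). *Camk2b* had 886, 923 and 878 CPM in the controls and 1007, 933 and 964 CPM in the cKO mice. Its cKO values were all above the controls, by a log2 fold change of 0.11 (SE 0.059, adjusted p = 0.26).

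*Camk2g* and *Camk2d*, which encode the γ and δ subunits found in many tissues, both fell. *Camk2g* had 556, 528 and 537 CPM in the controls and 392, 467 and 418 CPM in the cKO mice. The level fell by 21.3%, a log2 fold change of -0.35 (SE 0.071, adjusted p = 0.0105 by limma). Control replicate 3 allowed a second read number for *Camk2g*, 25200 in place of 27675, or 489 CPM in place of 537. With either number this mouse was above all cKO mice. No fit used 25200, so whether the call holds with it was not tested. Without *Mef2c* cKO replicate 1 the log2 fold change was -0.29, inside the cut-off on size. *Camk2d* had 90.2, 103 and 79.4 CPM in the controls and 73.6, 48.0 and 66.1 CPM in the cKO mice, so that the groups came within a few CPM of each other. It fell by 31.9%, a log2 fold change of -0.55 (SE 0.153, adjusted p = 0.0405 by limma). This call was the least stable of the 4. The adjusted p of *Camk2d* was 0.0963 without control replicate 1, 0.126 without control replicate 2, 0.0713 without *Mef2c* cKO replicate 2 and 0.0606 without *Mef2c* cKO replicate 3, with log2 fold changes of -0.68 to -0.37 over the 6 fits that leave out 1 mouse. It was 0.0503 with age as a covariate, 0.0511 with no filter on low values and 0.1 with no variance trend. Within each genotype the mice ranked for *Camk2d* as they did for the striatal marker sum. That sum was 204, 261 and 186 CPM in the controls and 408, 204 and 370.5 CPM in the cKO mice. The cKO mice were nonetheless the lower ones for *Camk2d*. The excitatory neuron marker sum gave the same order, at 1587, 1597 and 1434 CPM in the controls and 1836, 1776 and 1821 CPM in the cKO mice. With 3 mice per genotype few orders are possible, so such matches can arise by chance. Control replicate 2, the highest for *Camk2d*, also had the lowest oligodendrocyte marker sum of all mice, 3237 CPM. Their part in the *Camk2d* difference was not tested.

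**Figure D3:**
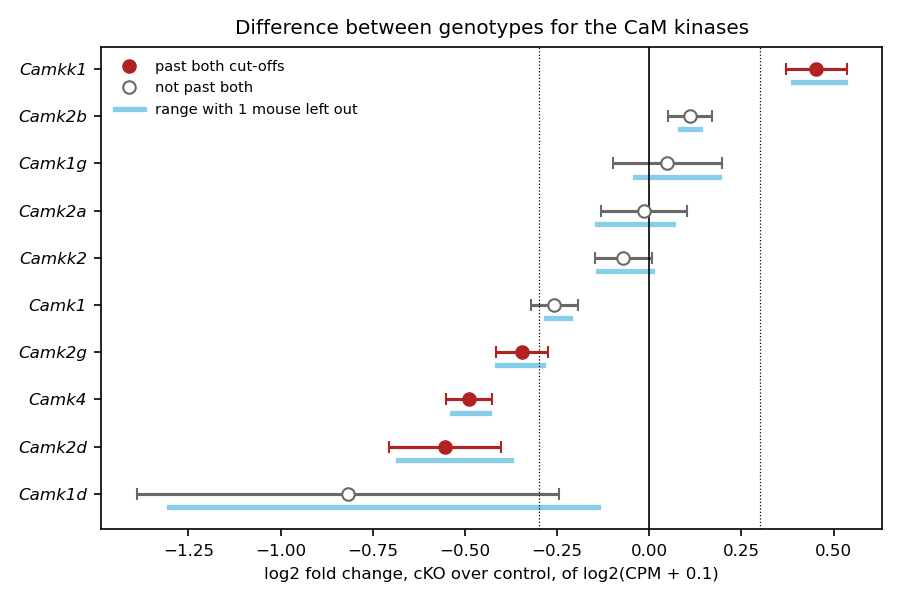
Log2 fold change (cKO over control, of log2(CPM + 0.1)) with its standard error for the 10 CaM kinases, filled red where both cut-offs were passed; dotted lines mark the cut-off of 0.3 on size, and blue bars give the range with 1 mouse left out at a time. *Camk4* and *Camkk1* stay past the cut-off on size in every case, the *Camk2g* range reaches -0.29, and the *Camk1d* range runs from -1.30 to -0.14.

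To compare levels between genes, CPM was divided by the kilobases of exon in the gencode gene model of mm9, which may differ from the annotation the authors counted on. On this scale *Camk2a* was the highest member, with 448 ± 37.0 CPM per kilobase in controls (SD, n = 3). *Camk1d* (216 ± 111) and *Camkk2* (190 ± 6.97) followed, then *Camk2g* (112 ± 2.97), *Camk2b* (98.2 ± 2.63), *Camkk1* (34.8 ± 2.27) and *Camk4* (21.3 ± 0.612). The lowest were *Camk1* (9.11 ± 0.483), *Camk1g* (7.27 ± 1.24) and *Camk2d* (5.66 ± 0.748). The control range of *Camk1d*, 98.6 to 319, overlapped those of *Camkk2*, *Camk2g* and *Camk2b*. Its reads rose and fell over the mice with those of other genes, as given above, which leaves its place in this order uncertain. The ranges of *Camk1g* and *Camk2d* overlapped as well, whereas all other neighbours in this order were apart. The order depended on the length taken. Per kilobase of the longest coding transcript, *Camk2b* (223 ± 5.96) was above *Camkk2* (217 ± 7.97) with overlapping values and above *Camk2g* (146 ± 3.88). *Camk1* (36.9 ± 1.96) then overlapped *Camkk1* (37.9 ± 2.47) and was above *Camk4* (21.5 ± 0.618). *Camk2d* (20.7 ± 2.74) overlapped *Camk4*, and *Camk1g* (9.24 ± 1.57) was the lowest member. *Camk2a* led on both scales.

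The same scale gives the make-up of CaMKII transcripts. In controls *Camk2a* made up 67.4% ± 1.61 of the sum of the 4 genes per kilobase, *Camk2g* 16.9% ± 1.23, *Camk2b* 14.8% ± 0.475 and *Camk2d* 0.851% ± 0.0638 (SD, n = 3). In cKO mice the shares were 69.0% ± 2.90, 13.7% ± 0.482, 16.6% ± 2.37 and 0.619% ± 0.188 in the same order. The *Camk2g* share was 17.6%, 15.5% and 17.7% in the controls and 13.7%, 13.3% and 14.2% in the cKO mice, with no overlap. The *Camk2a* and *Camk2b* shares overlapped between genotypes. With the longest coding transcript as length, *Camk2g* made up 13.8% ± 1.01 in controls and 11.1% ± 0.314 in cKO mice. Its ratio to *Camk2b*, which needs neither length nor total to be compared between mice, was -0.67, -0.81 and -0.71 on the log2 scale in the controls and -1.36, -0.999 and -1.20 in the cKO mice. For *Camk2d* against *Camk2b* the log2 ratio of reads was -3.31 ± 0.155 in controls and -3.97 ± 0.271 in cKO mice (SD, n = 3). *Camk2a* against *Camk2b* gave 1.90 ± 0.079 and 1.77 ± 0.272, and these values overlapped. No test was run on shares or ratios.

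**Figure D4:**
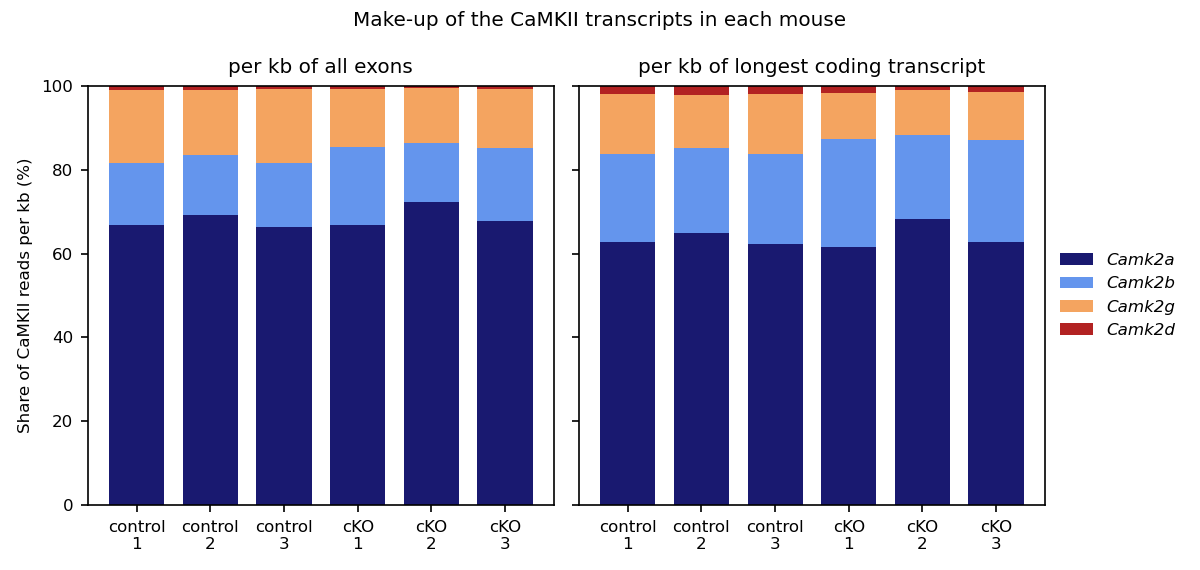
Share of each CaMKII gene in the summed CaMKII reads per kilobase (%) in each mouse, per kilobase of all exons of the gene model (left) and of the longest coding transcript (right). *Camk2a* takes the largest share in every mouse, and the *Camk2g* segment is smaller in each cKO mouse (13.3% to 14.2%, left) than in any control (15.5% to 17.7%).

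Around the kinases, 67 of 70 genes on 9 lists of regulators, partners and targets were tested, and 15 passed the cut-offs (22.4%, against 13.3% of all genes), 11 lower and 4 higher in cKO mice. Their median log2 fold change was -0.06, against 0.01 over all genes. The calmodulin genes *Calm2* and *Calm3* did not pass. They had log2 fold changes of -0.13 and -0.01, and 3 tested genes of calmodulin-binding proteins (*Nrgn*, *Gap43* and *Pcp4l1*), which did not pass either, had -0.29 to -0.12.

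The inhibitors of CaMKII both fell. *Camk2n1*, a small protein that binds the active kinase and blocks it, had 3325, 4332 and 3146 CPM in the controls and 1771, 2184 and 2053 CPM in the cKO mice. It was lower in every cKO mouse, with a log2 fold change of -0.84 (SE 0.129, adjusted p = 0.00229 by limma). Its relative *Camk2n2* had 193, 224 and 147 CPM in the controls and 110, 105 and 105 CPM in the cKO mice (log2 fold change -0.80, SE 0.13, adjusted p = 0.0033). Set against its inhibitor, the log2 ratio of *Camk2a* to *Camk2n1* reads was -0.03, -0.25 and -0.01 in the controls and 0.74, 0.85 and 0.59 in the cKO mice. Of the phosphatases that act on CaM kinases, *Ppm1e* rose from 191, 197 and 179 CPM to 231.8, 234 and 240 CPM (log2 fold change 0.32, SE 0.056, adjusted p = 0.00461 by limma). Without control replicate 3 its log2 fold change was 0.28, inside the cut-off on size. *Ppm1f* had a log2 fold change of -0.06 (SE 0.067, adjusted p = 0.649 by limma).

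Of 13 tested genes on the list of other calmodulin-regulated kinases and relatives of the CaM kinases, 2 fell and 11 did not pass. *Dapk2*, a death-associated protein kinase, had 3.09, 3.34 and 3.55 CPM in the controls and 0.886, 1.24 and 1.09 CPM in the cKO mice (log2 fold change -1.56, SE 0.173, adjusted p = 3.93e-04 by limma). *Pnck*, a relative of CaMKI, had 33.8, 46.3 and 38.0 CPM in the controls and 29.2, 21.0 and 30.6 CPM in the cKO mice, close to overlap (log2 fold change -0.56, SE 0.156, adjusted p = 0.0433). The *Pnck* call was lost without control replicate 2 or 3 or *Mef2c* cKO replicate 1 or 2, with adjusted p up to 0.131 and log2 fold changes of -0.66 to -0.39.

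Among 14 nuclear targets of the kinases, 2 fell and 1 rose. The class IIa histone deacetylases were divided. *Hdac9* had 52.7, 50.5 and 60.01 CPM in the controls and 30.3 and 30.2 CPM in the 2 cKO mice with a recovered value (log2 fold change -0.84, SE 0.09, adjusted p = 5.57e-04 by limma). *Hdac7* had 56.4, 69.8 and 73.2 CPM in the controls and 35.4, 46.2 and 34.3 CPM in the cKO mice (log2 fold change -0.79, SE 0.132, adjusted p = 0.00376). *Hdac4* (log2 fold change -0.40, adjusted p = 0.0706) and *Hdac5* (0.06, adjusted p = 0.551) did not pass. *Mef2d*, a factor related to *Mef2c*, rose from 140, 136 and 140 CPM to 181, 181 and 169 CPM (log2 fold change 0.35, SE 0.054, adjusted p = 0.0021 by limma). The paper itself reported no significant change of *Mef2d* in the cKO mice. Its RNA-seq calls came from DESeq on read counts, a test other than limma, and the figure it cites holds qPCR as well. *Creb1*, the transcription factor that CaMKIV phosphorylates, had a log2 fold change of 0.03 (SE 0.083, adjusted p = 0.878). Of 9 genes for AMPK subunits, AMPK's other upstream kinase and Akt, only *Prkag2*, a regulatory γ subunit of AMPK, passed. It had 109, 105 and 118 CPM in the controls and 175, 156 and 146 CPM in the cKO mice (log2 fold change 0.52, SE 0.077, adjusted p = 0.00195).

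Of 15 tested synaptic partners and substrates of CaMKII, 4 fell, 1 rose and 10 did not pass. *Stx1a*, a SNARE protein of the presynaptic membrane, had 398, 411 and 371 CPM in the controls and 192, 197 and 183 CPM in the cKO mice, the lowest adjusted p among all these lists (log2 fold change -1.04, SE 0.06, adjusted p = 1.11e-05 by limma). *Tiam1*, a Rac exchange factor, had 134, 145 and 134 CPM in the controls and 87.1, 85.3 and 100 CPM in the cKO mice (log2 fold change -0.60, SE 0.073, adjusted p = 6.58e-04). *Gria1*, the AMPA receptor subunit that CaMKII phosphorylates, rose from 253, 300 and 291 CPM to 477, 400 and 440 CPM (log2 fold change 0.64, SE 0.085, adjusted p = 0.00106). *Cacng2*, which encodes the AMPA receptor auxiliary protein stargazin, fell from 66.0, 72.2 and 72.2 CPM to 53.2, 53.4 and 50.4 CPM, by 0.42 on the log2 scale (SE 0.063, adjusted p = 0.00195). *Kalrn*, another exchange factor of dendritic spines, fell from 913, 971 and 1006 CPM to 731, 834 and 748 CPM, by 0.32 on the log2 scale (SE 0.071, adjusted p = 0.0148), a call that was lost without control replicate 3 or *Mef2c* cKO replicate 1 (log2 fold changes of -0.38 to -0.29 over all such fits, adjusted p up to 0.058). The NMDA receptor subunits that bind CaMKII did not pass, with log2 fold changes of -0.12 for *Grin1* and -0.12 for *Grin2b*, the latter with no value in control replicate 2. Of 6 calmodulin-dependent cyclases and phosphodiesterases, *Adcy8* fell from 51.1, 64.6 and 62.7 CPM to 45.1, 36.6 and 42.5 CPM (log2 fold change -0.52, SE 0.108, adjusted p = 0.0115), and *Adcy1*, *Adcy3*, *Pde1a*, *Pde1b* and *Pde1c* did not pass.

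**Figure D5:**
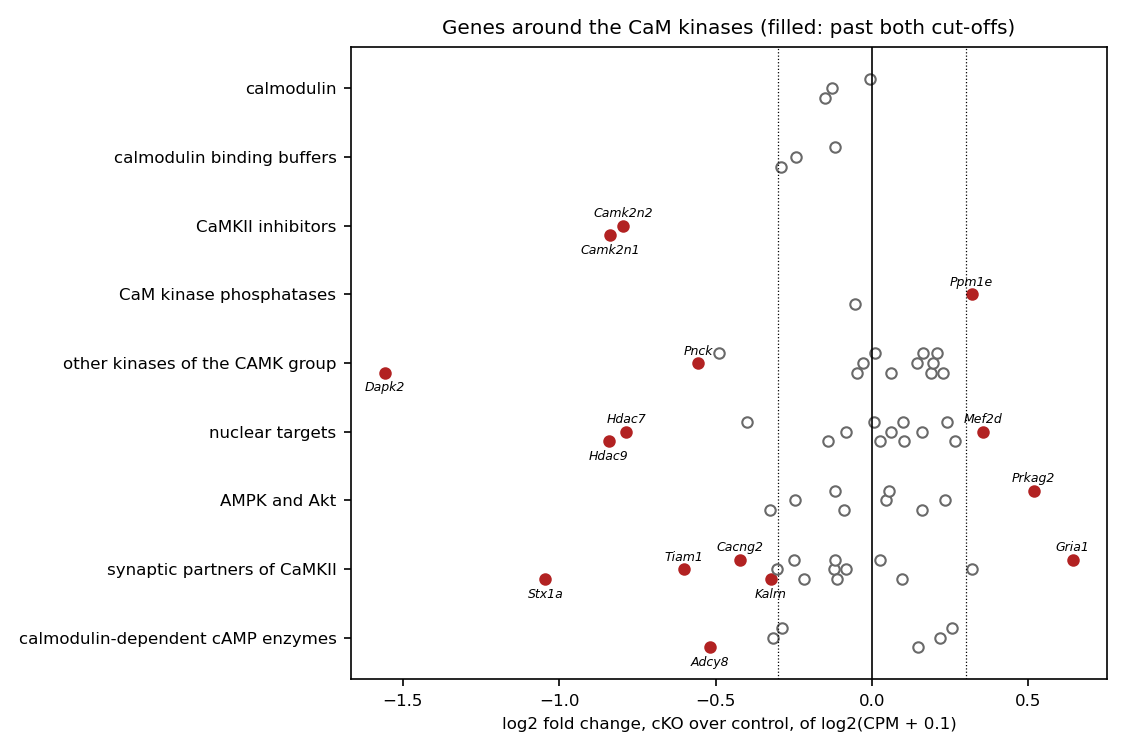
Log2 fold change (cKO over control, of log2(CPM + 0.1)) of each tested gene on the 9 lists around the CaM kinases, 1 point per gene and 1 row per list, filled red and named where both cut-offs were passed; dotted lines mark the cut-off of 0.3 on size. Of 67 points 15 are filled, 11 on the lower side, with *Dapk2* (-1.56) and *Stx1a* (-1.04) the farthest left and *Gria1* (0.64) the farthest right.

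By the RPKM values as deposited, with lengths that differ between mice, none of the 10 members passed the same cut-offs in limma, against 0.176% of the 7974 genes tested on that scale, and 2 members (*Camk1* and *Camk1g*) had an unadjusted p under 0.05. The standard errors of the members were 1.14 to 1.72 on the log2 scale there, against 0.059 to 0.573 in CPM.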

How the data were processed

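RNA of the somatosensory cortex was sequenced from 3 control and 3 *Mef2c* cKO mice (polyA selection, directional library). Per the paper's methods, the authors aligned reads to mm9 with TopHat and Bowtie, counted them per gene with HTSeq and the UCSC annotation, and converted the counts to RPKM. Versions, and the strand setting of the counting, are not given in the sources used here. The deposited RPKM values, 1 table per mouse, were the only values used. The 92 rows without a gene name (0.026% to 0.085% of the reads) were left out.

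Each RPKM value is a whole number of reads over a length from a list of 65 to 293 lengths per table. The sample total and the lengths were found from these steps. Of the values above 0, 99.77% to 99.88% were whole reads over a listed length and 95.03% to 99.88% were given a read number. Where several lengths could be fitted, the lengths of other mice or a length at least 10 times shorter settled it, and otherwise the value was missing, so single read numbers can be wrong. The read numbers given summed to 94.85% to 104.86% of the sample total. In control replicate 3 the sum was above the total, so some values there are too high. From 6 RPKM tables of 21667 genes made with known reads, the 6 totals came back exactly. At least 86.68% of the values were given a read number, and 99.85% to 100% of these were right. Lengths in these made tables repeated in a fixed cycle over the genes, an order that the recovery makes use of. The share that is right may therefore differ in the deposited tables.

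log2(CPM + 0.1) was compared with limma 3.58.1 (R 4.3.3; lmFit, eBayes with a variance trend, two-sided) for genes above 0.5 CPM in every mouse of 1 genotype with at least 2 values per genotype, with Benjamini-Hochberg adjustment over all genes. Fold changes on this scale understate those of low genes. The cut-offs follow the study. The fit was also run on counts drawn with known fold changes, and the outcome is not given here. Tables were handled in Python 3.11.15 (numpy 2.4.6, pandas 2.3.3) and plotted with matplotlib 3.10.9.

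Samples were grouped by the labels, which number the replicates and give the ages. The members and the lists were chosen with earlier results of these data known, so that no list is independent evidence. All members are named, and of the other lists each gene past the cut-offs, with further genes given as values; *Il31ra*, *Peak1*, *Cdk8*, *Trpm3* and *Lars2* were chosen after their values were seen. Alternatives covered the pseudocount, filter, scaling, variance model, unit, missing values, replicate block, age and each mouse left out, and, added after the data were seen, far shorter lengths left missing and another gene length. *Pcp4* and *Phkg2* did not pass the filter, and some genes of the lists are not reported here.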

Additional observations from a re-analysis of the deposited data

How the results depend on the processing

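Among the 4 members past the cut-offs, *Camk4* and *Camkk1* passed under every alternative but the deposited RPKM. When single mice were left out, 3 to 4 members, 12 to 17 genes of the surrounding lists and 1555 to 1755 genes in all passed, and the *Mef2c* log2 fold change was 0.67 to 0.79. Without both 14-week mice, 2 members (*Camk4* and *Camkk1*) and 1281 genes in all passed, against 4 and 1940. With 2 mice per genotype the precision is lower by construction. With the deposited RPKM, 0 members, 0 list genes and 14 genes in all passed, the *Mef2c* log2 fold change was 0.016, and the sign turned for *Camk1g* (-3.76), *Camk2b* (-1.85), *Camk2g* (0.66) and *Camkk1* (-0.74), since lengths that differ between mice enter the values. The sign of members with differences near 0 also turned with mice left out. The ranges were -0.039 to 0.188 for *Camk1g*, -0.143 to 0.063 for *Camk2a* and -0.138 to 0.007 for *Camkk2*, and without both 14-week mice *Camk2a* had 0.047. *Camk2d* lost its call with no filter on low values (adjusted p = 0.0511 by limma), no variance trend (0.1), age as covariate (0.0503), the replicate block (0.0756) and without both 14-week mice (0.061). *Pnck* lost its call under the same settings, and *Camk2g* (adjusted p = 0.102 by limma) and *Kalrn* lost theirs without both 14-week mice.

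Whether equal replicate numbers pair the mice was not settled. Deviations from the genotype means correlated over genes at -0.19, -0.10 and -0.13 for equal numbers. For unequal numbers the values were -0.001 to 0.134. With 3 mice per genotype these correlations cannot decide it, since the deviations within a genotype depend on each other. With the replicate number as a block, 3 members, 14 list genes and 1600 genes in all passed.

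Per kilobase of the longest coding transcript, the control shares of *Camk2a*, *Camk2b*, *Camk2d* and *Camk2g* were 63.3%, 21.0%, 1.95% and 13.8%. The members had 372 reads or more in each mouse, and counting error was not separated from the spread between mice.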
